A study of Mus musculus with 4 samples.

Results

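The genes of sphingosine-1-phosphate (S1P) metabolism were compared between wild-type and *Foxq1* cKO samples that the study describes as brain endothelial cells (ECs). *Sgpp2*, which encodes S1P phosphatase 2, was the starting point. The set was given by name and held 10 genes, namely *Sgpp2*, *Sgpp1*, *S1pr1*, *Sphk1*, *Sphk2*, *Sgpl1*, *Spns2*, *Plpp3*, *Cers2* and *Asah1*. Values were found for 9 of them among 12693 gene symbols, and *Sphk1*, which encodes the other sphingosine kinase, was not analysed here. *Sgpp2* was selected on its large rise in these same samples, so its values are given as a description with no test.

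S1P is a lipid messenger made by sphingosine kinases and carried out of the cell by dedicated transporters. It acts on G protein-coupled receptors, of which S1PR1 keeps endothelial junctions tight. S1P is removed along separate routes inside and outside the cell. The phosphatases SGPP1 and SGPP2 return it to sphingosine at the endoplasmic reticulum, the lyase SGPL1 cleaves it irreversibly, and the lipid phosphatase PLPP3 acts mainly on lipid phosphates outside the cell. Sphingosine is linked to a fatty acid by ceramide synthases and is freed from ceramide by ceramidases.

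RNA was sequenced from 2 wild-type and 2 *Foxq1* cKO samples of C57BL/6 mouse brain at embryonic day 18 (E18). The study's methods describe the cells as sorted from the cerebral cortex by CD31, a surface protein of ECs, whereas the labels give the tissue only as brain. Smart-seq2 is named for the libraries in the study's results text but not in its RNA sequencing methods. In the cKO, floxed *Foxq1* was deleted with Tie2-Cre, a transgene that is active in ECs and also in blood cells of the haematopoietic lineage. The controls are labelled wild-type and are described in the methods as littermates that lacked Cre, and whether they carried floxed alleles is not given in the sources used here. Nothing in these sources says that the samples came from separate embryos. Each p-value therefore sets a difference against a spread between samples that may be technical. In limma that spread is estimated partly from other genes.

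*Foxq1*, the deleted gene, stood at 353 and 297 normalized counts (reads scaled by 1 size factor for each sample) in the wild type and at 5.44 and 32.6 in the cKO samples, a mean of 5.84% of the wild-type level. The samples held between 15827166 and 21466436 reads on listed genes. All 12 endothelial markers examined had values, with sums between 347680 and 423402 normalized counts per sample, and 8 of the 12 were lower in each cKO sample than in either control, as were 18% of all genes tested. *Cdh5*, the endothelial cadherin, went the other way, with 4769 and 4803 normalized counts in the cKO against 4570 and 4269 in the wild type. Of 13 markers of neural cells 12 had values, summing to between 25639 and 29423. Without overlap, 4 of these 12 were lower in the cKO, *Gfap*, *Slc1a3*, *Hes5* and *Pax6*, and 1 was higher, *Nes*, against 18% of all genes in each direction. *Gfap* stood at 3073 and 2420 in the wild type and at 1081 and 1329 in the cKO. For pericytes and smooth muscle, 7 of 10 markers had values and summed to between 130808 and 142371. The 10 of 10 microglial markers summed to between 7738 and 12637. Transcripts of cell types other than ECs were thus present in every sample. In sorted populations measured in bulk, fewer cells of a type and less RNA per cell cannot be told apart.

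*Sgpp2* stood at 11.8 normalized counts in wild-type 1, 176 in wild-type 2, 1856 in cKO 1 and 1704 in cKO 2. These values rested on 14, 177, 1705 and 1675 reads. Both cKO samples lay far above both wild-type samples, and the lower cKO sample held 9.66 times the level of the higher wild-type sample. The means were 94.1 ± 116 (SD, n = 2) in the wild type and 1780.1 ± 108 (SD, n = 2) in the cKO, a ratio of 18.9. On the scale of log2(normalized count + 1), the difference was 5.22 with a standard error of 1.19. It was smaller on recovered reads, at 4.245 in DESeq2 and 4.254 in edgeR. The higher wild-type sample held 15.0 times the level of the lower one, whereas the cKO samples differed by 1.09-fold, so the size of the rise depended on which wild-type sample it was measured against. Without wild-type 1 the difference was 3.33 and without wild-type 2 it was 7.12. Median differences of the 8 lists of cell type markers examined ran from -0.52 to 0.02. Single markers ran from -1.29 (*Pax6*) to 2.38 (*Ptprc*). The part of cell composition in the *Sgpp2* value was not tested.

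*Sgpp1*, which encodes the other S1P phosphatase, showed no such pattern. It stood at 141 and 270.2 normalized counts in the wild type and at 27.2 and 205 in the cKO samples, so that cKO 1 was the lowest sample and cKO 2 lay between the wild-type samples. The difference was -1.36 on the log2 scale, with a standard error of 1.10 and a 95% interval from -4.04 to 1.32 (limma, adjusted p = 0.875 over 12472 genes). The interval holds both a fall and a rise of the transcript. DESeq2 and edgeR on recovered reads gave smaller differences of -0.82 and -0.81, and the ratio of the means was 0.566. The value rested on cKO 1, which had 25 reads. It was 0.07 without that sample, -2.80 without cKO 2 and -0.89 without wild-type 2.

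The windows of 250 bases before the annotated starts of the 2 phosphatase genes are shown because these paralogues share an enzyme activity and differed in their values. The sequences are from RefSeq in the GRCm38.p6 assembly, 5′ to 3′ on the strand of the gene, and capitals mark CpG dinucleotides.
*Sgpp2*, chr1:78310096-78310345, plus strand: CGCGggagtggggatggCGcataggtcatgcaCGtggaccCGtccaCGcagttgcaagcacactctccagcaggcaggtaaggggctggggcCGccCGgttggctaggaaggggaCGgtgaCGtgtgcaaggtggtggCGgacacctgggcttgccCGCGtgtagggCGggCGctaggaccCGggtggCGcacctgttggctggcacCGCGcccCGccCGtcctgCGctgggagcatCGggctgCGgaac
*Sgpp1*, chr12:75735730-75735979, minus strand: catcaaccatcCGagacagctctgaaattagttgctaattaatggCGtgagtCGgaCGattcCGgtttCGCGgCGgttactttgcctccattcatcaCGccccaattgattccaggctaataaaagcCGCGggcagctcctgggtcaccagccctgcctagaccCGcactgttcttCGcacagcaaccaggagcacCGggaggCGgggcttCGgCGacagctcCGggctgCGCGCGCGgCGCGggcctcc
Each window held 24 CpG dinucleotides, against a median of 6 over 32851 mouse promoter windows of the same length. The GC content was 70.8% for *Sgpp2* and 61.2% for *Sgpp1*, against a median of 52.4%. Because FOXQ1 is a forkhead protein, the core forkhead letters TGTTTA were searched on both strands, which amounts to TGTTTA or TAAACA. Neither phosphatase window held them, nor did any window of *Sphk2*, *Sgpl1*, *Spns2*, *Plpp3* or *Cers2*. Of the 8 genes of the set with a window only *Sphk1* held them, in 2 of its 5 windows, which overlap each other. Over all genes with a window 13.5% held them, and 12% of all windows did. The letters GTTTC, which the study links to FOXQ1, were searched in the same way, as GTTTC or GAAAC. They were absent from the *Sgpp2* window and occurred 1 time in the *Sgpp1* window, from base 65 of the printed sequence. They were also in the *Plpp3* window and in 2 windows of *Sphk1*, which overlap each other. Thus 3 of the 8 genes with a window held them, against 43.4% of all genes with a window and 39.7% of all windows. A match is a description of letters and no site of binding, and windows farther from the start were not searched.

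**Figure D1:**
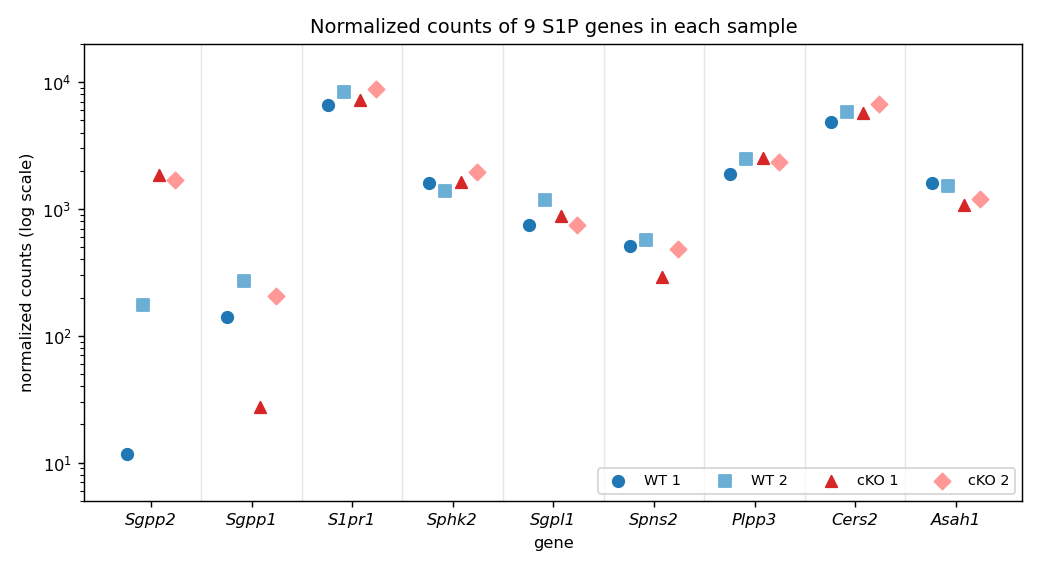
Normalized counts (log scale) of the 9 S1P genes with values, with 1 point per sample and a separate symbol for wild-type 1, wild-type 2, cKO 1 and cKO 2. *Sgpp2* is the gene whose cKO points, at 1856 and 1704, stand far above its wild-type points at 11.8 and 176, while the points of *S1pr1*, *Plpp3* and *Cers2* lie close together.

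Levels of different genes were compared as normalized counts per kb of annotated exon. On this scale *Sgpp2* stood at 2.95 and 44.1 in the wild type and at 464 and 426 in the cKO samples. *Sgpp1* stood at 24.9 and 47.8 in the wild type and at 4.82 and 36.4 in the cKO. *Sgpp2* thus made up 10.6% and 48.0% of the summed phosphatase level in the wild type and 99.0% and 92.1% in the cKO samples. The predominant phosphatase transcript was *Sgpp1* in wild-type 1 and *Sgpp2* in both cKO samples, and in wild-type 2 the transcripts stood at nearly equal levels.

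The summed level of the phosphatases was 27.9 and 91.9 normalized counts per kb in the wild type and 469 and 462 in the cKO samples. *Sgpl1*, the lyase, stood at 121 and 190 per kb in the wild type and at 144 and 122 in the cKO. The phosphatases together were therefore at 23.0% and 48.4% of the lyase level in the wild-type samples, and at 3.25 and 3.79 times that level in the cKO samples. Relative to *Plpp3*, at 592 and 781 per kb in the wild type and 803 and 745 in the cKO, the phosphatases stood at 4.70% and 11.8% in the wild type and at 58.4% and 62.1% in the cKO. These ratios follow the selected gene and are given as a description.

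**Figure D2:**
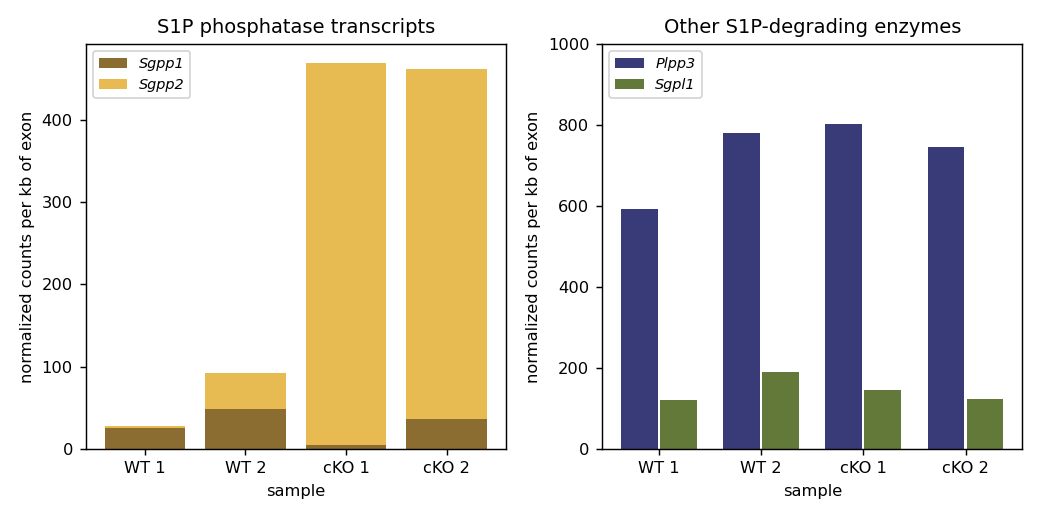
Normalized counts per kb of exon for genes that remove S1P, in each of the 4 samples, with *Sgpp1* and *Sgpp2* stacked on the left and *Plpp3* and *Sgpl1* side by side on the right. The stacked level is 27.9 and 91.9 in the wild type and 469 and 462 in the cKO samples, and nearly all of the latter is *Sgpp2*.

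Among all genes with a length, *Sgpp2* moved from the percentiles 4.13 and 29.5 of the per-kb levels in the wild-type samples to 84.3 and 82.9 in the cKO samples. Within the set it was the lowest of 9 genes in both wild-type samples and the 4th and 5th highest in the cKO samples. By the mean over 4 samples *S1pr1* was highest at 2531 per kb, followed by *Cers2* at 1569 and *Plpp3* at 730.1, and the ranges of these genes did not overlap. *Asah1*, *Sphk2*, *Sgpp2*, *Sgpl1* and *Spns2* followed, each with a range that overlapped that of its neighbour. *Sgpp1*, with a mean of 28.5, was lowest, and its range did not reach that of *Spns2*.

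Neither of the other genes of S1P removal passed the test. *Sgpl1* stood at 745 and 1166 normalized counts in the wild type and at 886 and 749 in the cKO, and the groups overlapped. Its difference was -0.19 on the log2 scale, with a 95% interval from -1.05 to 0.66 (limma, adjusted p = 0.941), and it ran from -0.52 without wild-type 1 to 0.13 without wild-type 2. *Plpp3* stood at 1871 and 2467 in the wild type and at 2535 and 2352 in the cKO, also with overlap. Its difference was 0.18, with an interval from -0.37 to 0.74 (limma, adjusted p = 0.908), and it ran from -0.015 without wild-type 1 to 0.38 without wild-type 2. Neither test passed the threshold, and intervals of this width leave room for changes in either direction.

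*Sphk2*, the sphingosine kinase with values, stood at 1611 and 1384 normalized counts in the wild type and at 1638 and 1953 in the cKO samples. Both cKO samples were higher than both wild-type samples, by a margin of 1.02-fold between the nearest samples. The difference was 0.26 on the log2 scale (standard error 0.242; limma, adjusted p = 0.888). It was 0.15 without wild-type 2 and 0.13 without cKO 2. Its exons share 539 bases with *Dbp* and 373 with *Rpl18* on the opposite strand, 13% and 8.97% of its exon length, and the strand setting of the counting is not given in the sources used here, so reads of these genes may not have been told apart.

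*Spns2*, which encodes the S1P exporter of ECs, stood at 514 and 564 normalized counts in the wild type and at 288 and 484 in the cKO. Both cKO samples were lower than both wild-type samples, and cKO 1 was the lowest. The difference was -0.53, with a standard error of 0.453 and a 95% interval from -1.63 to 0.58 (limma, adjusted p = 0.880). It was -0.15 without cKO 1 and -0.90 without cKO 2. It shares 131 bases of exon, 3.21% of its exon length, with *Mybbp1a* on the opposite strand. *Mybbp1a*, a nuclear protein gene, was lower in both cKO samples and was past an unadjusted p of 0.05 (log2 difference -0.68, limma, adjusted p = 0.857), and its part in the *Spns2* value was not tested.

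*S1pr1*, the main S1P receptor of ECs, had the highest level per kb of the set in every sample. It stood at 6596 and 8297 normalized counts in the wild type and at 7177 and 8764 in the cKO samples, so the groups interleaved. The difference was 0.10, with a standard error of 0.183 and a 95% interval from -0.35 to 0.55 (limma, adjusted p = 0.942). The sign of this small difference turned when wild-type 1 or cKO 2 was left out.

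The other S1P receptors were examined after their values were seen. *S1pr3*, a receptor found on ECs and mural cells, stood at 8003 and 7596 normalized counts in the wild type. In the cKO it stood at 6698 and 6980, lower without overlap (log2 difference -0.19, limma, adjusted p = 0.865). Per kb of exon, *S1pr1* held 1.21 and 1.60 times the level of *S1pr3* in the wild type and 1.57 and 1.84 times in the cKO samples. *S1pr4*, a receptor known mainly from lymphoid and blood cells, stood at 534 and 374 in the wild type and at 987 and 571 in the cKO, without overlap (log2 difference 0.75, limma, adjusted p = 0.857). *S1pr2* ranged from 193 to 310.1 and *S1pr5* from 4.07 to 247, with the lowest and the highest *S1pr5* value both in cKO samples.

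*Cers2*, the ceramide synthase for very long acyl chains, stood at 4876 and 5835 normalized counts in the wild type and at 5664 and 6702 in the cKO. The groups overlapped, and the difference was 0.21 with a 95% interval from -0.22 to 0.64 (limma, adjusted p = 0.880). It was 0.08 without wild-type 1 and 0.09 without cKO 2 and stood at 0.34 without wild-type 2 and 0.33 without cKO 1. On the opposite strand *Cers2* shares 144 bases of exon with *6330562C20Rik* and 75 with *Setdb1*, a histone methyltransferase gene that was higher in both cKO samples (log2 difference 0.57, limma, adjusted p = 0.857), and their part in the *Cers2* value was not tested. *Asah1*, the lysosomal acid ceramidase that frees sphingosine from ceramide, stood at 1611 and 1510 in the wild type and at 1075 and 1208 in the cKO. Both cKO samples were lower, at a mean of 73.1% of the wild-type mean. The difference was -0.45 with a standard error of 0.248 and an interval from -1.06 to 0.15 (limma, adjusted p = 0.857), the smallest p among the 8 genes other than *Sgpp2*. No annotated gene overlaps *Asah1*, *Sgpp1*, *S1pr1* or *Plpp3*. As *Asah1* is also a gene of lysosome-rich cells, the microglial markers are given beside it, with sums of 10320 and 12637 normalized counts in the wild type and 7738 and 8322 in the cKO, and 3 of the 10 lower without overlap, against 18% of all genes. None of the 10 was higher without overlap, and 4 of them had differences above 0, *Ptprc* (2.38), *Mrc1* (0.24), *Tyrobp* (0.12) and *Aif1* (0.06). Their part in the *Asah1* value was not tested.

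None of the 8 genes other than *Sgpp2* had an unadjusted p under 0.05 in limma, and the count was also 0 by DESeq2 and by edgeR on recovered reads. Over all genes tested, 2.17% passed this threshold as higher and 3.05% as lower in the cKO, 5.22% in all, and 0% passed after adjustment. At the adjusted threshold DESeq2 called 59 genes and edgeR 0. Of the 8 genes, 1 was higher in both cKO samples and 2 were lower, against 2239 genes (18%) in the upward and 2249 genes (18%) in the downward direction over all genes tested, so these counts were near the background. Their median difference was -0.05 on the log2 scale, against 0.01 over all genes, and their median absolute difference was 0.23, against 0.37. An exact two-sided permutation test of 2 against 2 samples cannot go below 0.333, so no single gene could pass such a test.

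**Figure D3:**
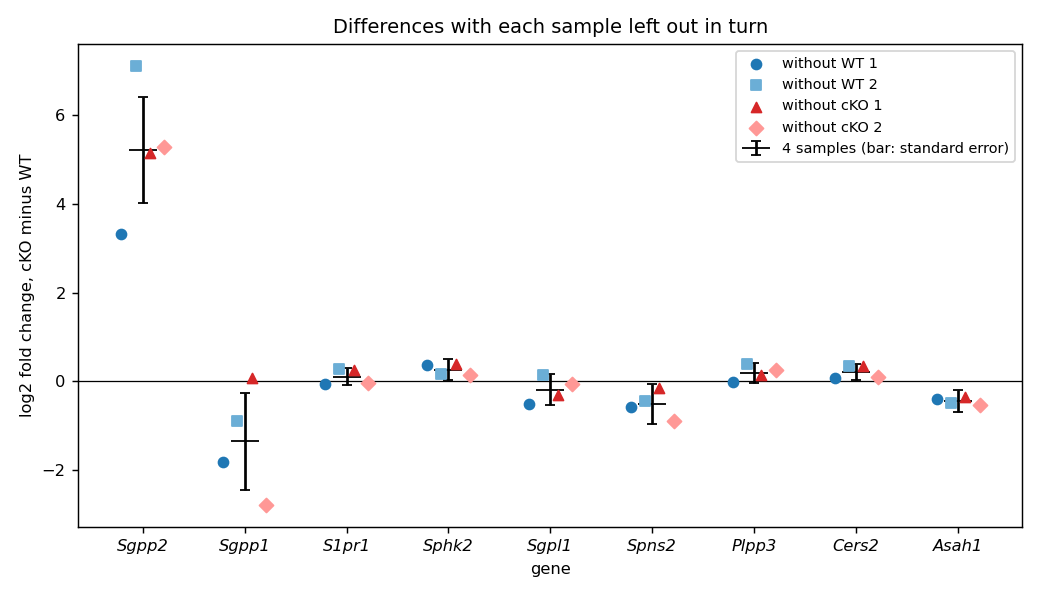
Log2 fold change (cKO minus wild type) of each of the 9 genes in all 4 samples (line, with a bar of 1 standard error) and with each sample left out in turn (symbols). *Sgpp2* stays between 3.33 and 7.12, *Sgpp1* runs from -2.80 to 0.07, *Spns2* from -0.90 to -0.15 and *Asah1* from -0.54 to -0.37, and the other 5 genes lie between -0.52 and 0.39.

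A wider list of sphingolipid genes, without the set itself, held 58 genes, of which 46 had values. None passed an unadjusted p of 0.05 in limma or in edgeR, and 1 did in DESeq2. Both cKO samples were above both wild-type samples for 4 of the 46 genes and below them for 6, against the same 18% in each direction over all genes. The median difference was 0.05, and the values ran from -1.60 to 2.23. By role, the counts are given as a description, because with lists this small they cannot be told from the 18% in each direction. None of the 6 genes of sphingomyelin synthesis and breakdown and none of the 7 of glycosphingolipid and ceramide handling separated the groups. Of 8 genes of ceramide synthesis and its regulators, 1, *Sptssa*, was lower in both cKO samples. Of the 11 genes of receptor coupling and trafficking, 2 were higher without overlap, *Arrb2* and *Dnm2*, and 3 were lower, the G protein subunit genes *Gnai1*, *Gnai3* and *Gna11*. *Abcc1*, a transporter that can export S1P, was also lower in both cKO samples, at 257 and 137 normalized counts against 269 and 271. Apart from *Gnai1*, these genes were named after their values were seen.

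The gene that passed in DESeq2 was *Acer2*, a Golgi ceramidase (log2 difference -1.52, adjusted p = 0.321 in DESeq2). It stood at 2886 normalized counts in wild-type 1, 691 in wild-type 2, 538 in cKO 1 and 708 in cKO 2, so wild-type 1 alone was high and the other 3 samples overlapped. In limma its difference was -1.19 (standard error 0.665, adjusted p = 0.857). *Acer3*, a ceramidase of the endoplasmic reticulum and Golgi, stood at 32.0 and 34.9 in the wild type and at 108 and 80.4 in the cKO, without overlap, and its difference was 1.45 (standard error 0.830, limma, adjusted p = 0.857). *Asah2*, the neutral ceramidase, had a larger difference of 2.23 with a standard error of 1.53, with wild-type 1 at 5.06 and the other samples between 84.4 and 193.

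*Ormdl1*, an inhibitor of the first enzyme of ceramide synthesis, differed by 1.83 (standard error 1.27) with the same low wild-type 1 sample, at 7.58 against 74.3 to 115 in the others. Among the largest differences downward, *Cers1*, a ceramide synthase of neurons, differed by -1.60 with a standard error of 1.80 and stood at 14.3, 70.8, 1.09 and 56.0 in wild-type 1, wild-type 2, cKO 1 and cKO 2. *Gnai1*, a G protein subunit through which S1P receptors act, stood at 383 and 418 in the wild type and at 366 and 153 in the cKO and differed by -0.76 (standard error 0.597). Within the set, wild-type 1 was the lowest of the 4 samples for *Sgpp2*, *S1pr1*, *Sgpl1*, *Plpp3* and *Cers2*, cKO 1 for *Sgpp1*, *Spns2* and *Asah1*, and wild-type 2 for *Sphk2*.

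**Figure D4:**
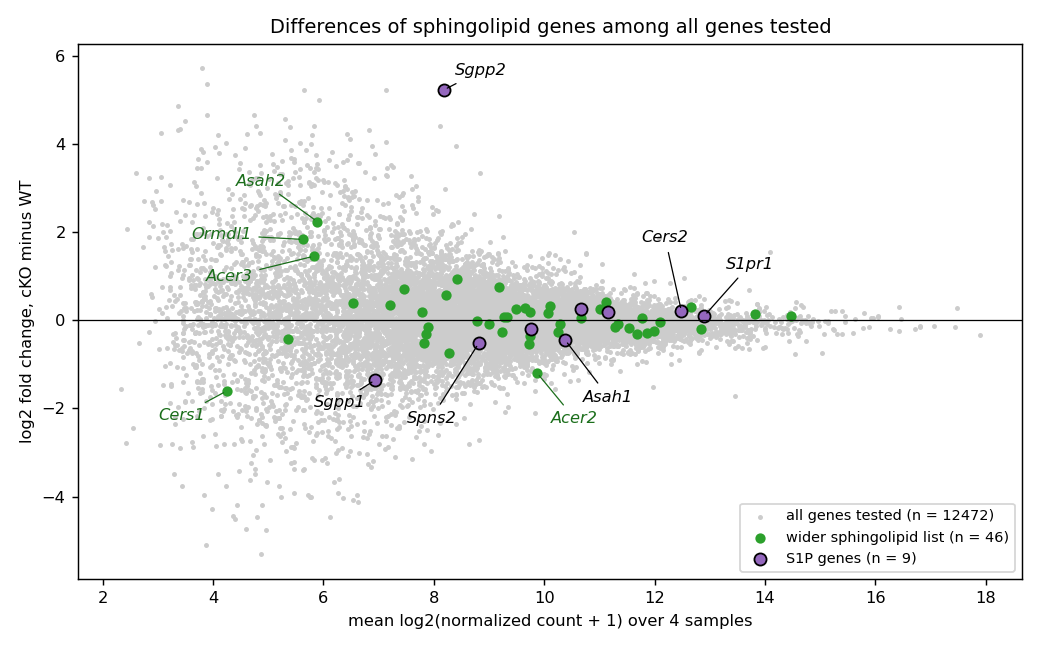
Log2 fold change (cKO minus wild type) against the mean of log2(normalized count + 1) over 4 samples, for 12472 genes tested (grey), 46 genes of the wider sphingolipid list (green) and the 9 S1P genes (purple). *Sgpp2*, at 5.22, lies above all other sphingolipid genes, whose differences run from -1.60 to 2.23.

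The exons of *Sgpp2* (gene identifier ENSMUSG00000032908 in the deposited table) share 248 bases, 6.2% of their 4002 bases, with *Farsb*, a phenylalanyl-tRNA synthetase gene on the opposite strand. *Farsb* stood at 1885 and 2638 normalized counts in the wild type and at 3348 and 2315 in the cKO, so its groups overlapped, and its difference was 0.32 (limma, adjusted p = 0.882). The nearest other listed genes, *Epha4* before it and *Acsl3* after it, lay 795257 and 237536 bases away in the GRCm38 annotation and differed by 0.15 and -0.23. The part of these genes in the *Sgpp2* value was not tested.

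The genes whose pattern was nearest to that of *Sgpp2* were chosen by the smallest Euclidean distance between profiles of log2(normalized count + 1) over the 4 samples, each centred on its own mean. They were *Zfp248* (distance 1.04), *Tmem231* (1.16), *Cbwd1* (1.18), *Piga* (1.21) and *Xaf1* (1.28). *Zfp248*, a zinc finger gene, stood at 0.843 and 61.8 normalized counts in the wild type and at 440 and 267 in the cKO. *Piga*, which acts at the first step of GPI anchor synthesis, stood at 2.53 and 17.9 in the wild type and at 454 and 204 in the cKO. *Tmem231*, a gene of the ciliary transition zone, and *Cbwd1* had the same low wild-type 1 value of 2.53 and cKO values between 155 and 234. *Xaf1*, an interferon-induced gene, stood at 8.43 and 126 in the wild type and at 469 and 681 in the cKO. In all 5 genes wild-type 1 was lowest, as in *Sgpp2*, with between 1 and 10 reads. As these genes were picked for this pattern, no test is given, and none of them belongs to the sphingolipid lists.

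**Figure D5:**
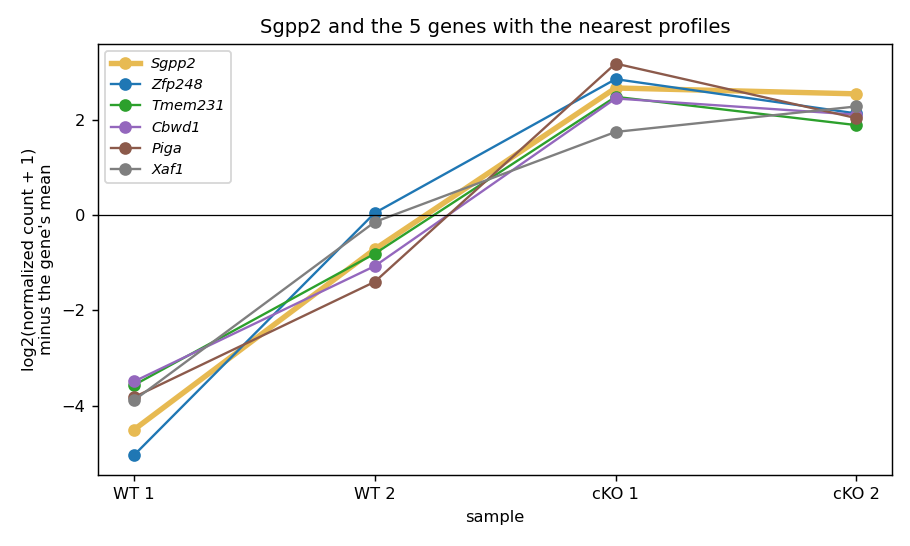
Log2(normalized count + 1) minus the gene's own mean in each of the 4 samples for *Sgpp2* (thick line) and the 5 genes with the nearest profiles, with lines that join the values of 1 gene. All 6 genes are lowest in wild-type 1, intermediate in wild-type 2 and highest in the cKO samples, at distances of 1.04 to 1.28 from *Sgpp2*.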

How the data were processed

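The authors deposited a table of normalized counts (a signal per gene) for 2 wild-type and 2 *Foxq1* cKO samples. The submitters' processing notes name Bowtie2 2.2.3, TopHat2 2.0.12, HTSeq 0.6.0 and mm9, and a strand setting is not given in the sources used here. Dividing by the smallest step of each sample gave whole reads for all values (tolerance 0.001). Groups came from the sample labels. Genes with a mean of at least 10 (12472 of 12693 symbols) were compared with limma 3.58.1 in R 4.3.3 (lmFit, eBayes with a trend) on log2(value + 1), with Benjamini-Hochberg adjustment, and the fit was tested on simulated data. DESeq2 1.42.0 and edgeR 4.0.16 on recovered reads were alternatives, together with other pseudocounts (0.1 and 5), filters and scalings, a replicate block and each sample left out. Exon lengths and overlaps came from GENCODE M21 (GRCm38). Named were the set, *Foxq1*, the 3 largest differences each way and any gene with an unadjusted p under 0.05 in the wider list, and the 5 genes nearest to *Sgpp2* by profile. The other S1P receptors and the genes that overlap or neighbour the set were added after their values were seen, as was the search for GTTTC. Members and lists were chosen with earlier results of these data known. Every listed gene had at least 1 read in each sample, and amplified reads without molecular identifiers are not independent molecules.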

Additional observations from a re-analysis of the deposited data

How the results depend on the processing

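Under the 10 alternatives that kept all 4 samples (pseudocounts, filters, TMM and quantile scaling, no trend, the replicate block, DESeq2 and edgeR), none of the 90 differences of the 9 genes turned sign or moved past an unadjusted p of 0.05 where it had not been (*Sgpp2* not tested), and that of *Sgpp2* ran from 4.25 to 5.28. *Sgpp1*, at -1.36, was -0.82 in DESeq2 and -0.81 in edgeR. The all-gene count at an unadjusted p under 0.05 ran from 592 to 824, against 651. The wider-list count, 0, became 1 in DESeq2 and 1 without the trend.

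Leaving out 1 sample in turn assumes that the lone sample varies like the other group. This turned the sign of 5 of 36 differences, in 4 genes. Many of the other differences changed in size by over 1.5 times. *Plpp3* ran from -0.015 (without wild-type 1) to 0.38, *S1pr1* from -0.065 (without wild-type 1; -0.04 without cKO 2) to 0.27, *Sgpl1* from -0.52 to 0.13 (without wild-type 2), and *Sgpp1* from -2.80 (without cKO 2, past an unadjusted p of 0.05 in limma) to 0.075 (without cKO 1). *Spns2* ran from -0.90 (without cKO 2) to -0.15 (without cKO 1), *Cers2* from 0.08 (without wild-type 1) to 0.34 (without wild-type 2), *Sphk2* from 0.13 (without cKO 2) to 0.39 (without cKO 1) and *Asah1* from -0.54 to -0.37. *Sgpp2* ran from 3.33 (without wild-type 1) to 7.12 (without wild-type 2). The all-gene count ran from 276 (without cKO 1) to 1569 (without wild-type 2), and the wider-list count from 0 to 4 (without wild-type 2), with 1 without wild-type 1 and 1 without cKO 2. The cause was not tested.

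Replicate numbers 1 and 2 recur in both groups, but deviations of same-numbered samples had a correlation of 0.03 over 12472 genes, so they were not treated as pairs. With the replicate block the difference of *Sgpp2* was 5.22, the all-gene count 693 and the wider-list count 0.

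With 2 samples a group and a median standard error of 0.50 on the log2 scale, small changes could not be detected, and genes with few reads, such as *Sgpp1* in cKO 1, were measured least precisely.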
